A study of Mus musculus with 2 samples.

Results

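The formins are actin nucleators. Their paired FH2 domains start an unbranched actin filament and stay on its growing end, while an FH1 domain feeds it with actin bound to profilin. The Arp2/3 complex instead starts branches on the side of existing filaments, so the 2 systems build different networks from one pool of actin. Most formins of the Diaphanous group (Diaph, Fmnl and Daam) are folded shut until an upstream signal opens them, and microglia, the resident macrophages of the brain, use both kinds of network to extend and move their processes.

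9 formin genes were followed by their gene symbols, of 32285 genes in the deposited tables: Diaph1, Diaph2, Diaph3, Fmn1, Daam1, Fhod1, Fmnl1, Fmnl2 and Fmnl3. All 9 were found. The 5 other formins of the mouse, Fmn2, Daam2, Fhod3, Inf2 and Grid2ip, were looked up beside them. The question put to the data was whether the transcripts of these nucleators differ when microglia lack an Arp2/3 subunit.

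The study compared brain immune cells of 4 control mice (Arpc4 fl/fl without Cre) and 4 littermate Arpc4ΔCx3cr1 mice (Tg(Cx3cr1-Cre) Arpc4 fl/fl, here called KO), adults of 12 weeks. All 8 mice were thus homozygous for the floxed Arpc4 allele, which encodes a subunit of the Arp2/3 complex, and the controls had no Cre. The Cre is an inserted transgene under Cx3cr1 sequences, carried on 1 allele. It is active in microglia and also in other Cx3cr1-expressing myeloid cells. Viable CD45+ cells of each mouse were tagged with an oligonucleotide, pooled on one day and sequenced as 1 droplet library of mRNA 3′ ends, so the mice are replicates and the library is shared. The study's methods name 1 female among the KO mice, which the study left out. Here KO mouse 1 stood apart: Xist was at 1383 CPM (molecule counts scaled to the size of the library) in its microglia-like cells against 3.65 to 13.3 CPM in the other 7 mice, and Hbb-bs made up 0.0934% of its counts against at most 0.00033%. Its sex and its genotype effect cannot be told apart within 1 mouse, so results are also given without it.

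Of 19864 deposited cells 19863 passed the filters, and no cell barcode was shared between mice. The mice carried 5251527 to 12878691 molecule counts (UMIs) each. Clusters named from fixed markers gave 7796 control (996 to 2332 a mouse) and 9237 KO (2184 to 2382 a mouse) microglia-like cells, beside 287 control and 125 KO CNS-associated macrophage-like (CAM-like) cells, 134 and 175 T cell-like cells, and 114 and 232 monocyte-like cells. The T cell-like cluster also held natural killer cell genes. All 14 microglia markers were detected in the microglia-like sums. Their summed level ran from 44518 to 45515 CPM in the controls and from 32603 to 35339 CPM in the KO mice, 12 of the 14 with a lower mean in KO. The clusters were formed without the formins and without Arpc4. The microglia-like clusters 5 and 6 had more markers of another class than of microglia among their top 10 genes (Fn1 in cluster 5, which also showed Xist and Tsix, and 4 haemoglobin genes in cluster 6). KO mouse 1 gave 1386 of the 1441 KO cells of cluster 5. Results were therefore also taken without both clusters, an alternative chosen after seeing the data, which left 995 to 2315 cells in each control and 466 to 2127 in each KO mouse. KO cells also had a higher mitochondrial share in microglia-like cells, 1.08 to 1.27% against 0.54 to 0.59%.

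Arpc4 itself was at 236, 216, 225 and 222 CPM in the microglia-like cells of control mice 1 to 4 and at 153, 148, 143 and 138 CPM in KO mice 1 to 4. The groups did not overlap (log2 fold change −0.63, SE 0.05, adjusted p = 5.42e-06, edgeR). 3′ counts do not show which exons a transcript holds, and Ttll3 overlaps Arpc4 on the same strand, so this row checks the labels only in part. Free RNA was also present: 4.74% of all UMIs lay in droplets with at most 100 UMIs, where Arpc4 stood at 229 CPM.

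The promoters of 4 formins are shown because the results turn on these genes: Fmnl2, Daam1 and Fmn1 rose together in KO microglia-like cells, and Fmnl3 fell. The 250 bases before the RefSeq start of each (build GRCm38.p6, given 5′ to 3′ on the strand of the gene) are shown with every GC box, the letters GGGCGG on either strand, in capitals. Fmnl2 lies at chr2:52857860-53133804 (+), Fmn1 at chr2:113327736-113716767 (+), Daam1 at chr12:71831078-71992333 (+) and Fmnl3 at chr15:99317225-99370482 (−), in GENCODE vM21 coordinates of mm10. Of the others, Diaph2 lies at chrX:129749742-130465834 (+), Diaph3 at chr14:86655367-87141235 (−), Fhod1 at chr8:105329163-105347953 (−) and Fmnl1 at chr11:103171107-103198901 (+). The windows shown are chr2:52857618-52857867 for Fmnl2, chr2:113327486-113327735 for Fmn1, chr12:71830818-71831067 for Daam1 and chr15:99370483-99370732 for Fmnl3.
Fmnl2: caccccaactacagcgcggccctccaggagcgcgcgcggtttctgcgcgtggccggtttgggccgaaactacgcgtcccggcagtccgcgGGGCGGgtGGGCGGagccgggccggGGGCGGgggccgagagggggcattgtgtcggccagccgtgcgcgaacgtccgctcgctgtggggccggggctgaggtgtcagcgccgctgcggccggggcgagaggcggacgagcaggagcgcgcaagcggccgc
Daam1: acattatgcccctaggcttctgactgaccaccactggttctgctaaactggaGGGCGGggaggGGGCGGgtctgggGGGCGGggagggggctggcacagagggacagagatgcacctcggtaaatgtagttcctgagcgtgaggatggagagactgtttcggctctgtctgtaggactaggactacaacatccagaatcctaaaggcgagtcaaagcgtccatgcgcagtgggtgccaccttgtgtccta
Fmn1: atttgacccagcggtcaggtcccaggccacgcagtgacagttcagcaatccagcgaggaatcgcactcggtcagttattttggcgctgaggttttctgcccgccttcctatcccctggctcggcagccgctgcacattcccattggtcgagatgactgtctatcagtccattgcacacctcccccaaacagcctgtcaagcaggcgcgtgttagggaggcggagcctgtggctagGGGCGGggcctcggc
Fmnl3: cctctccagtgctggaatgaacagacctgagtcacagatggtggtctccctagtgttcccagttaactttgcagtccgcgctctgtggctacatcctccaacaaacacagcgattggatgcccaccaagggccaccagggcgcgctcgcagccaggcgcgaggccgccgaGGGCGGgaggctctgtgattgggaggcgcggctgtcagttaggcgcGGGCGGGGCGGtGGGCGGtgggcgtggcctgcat
All 4 windows held a GC box, with 3 matches in Fmnl2, 1 in Fmn1, 3 in Daam1 and 4 in Fmnl3, where 33.0% of 32536 promoter windows of this length held at least 1. The serum response factor motif (CArG box), the site of a factor that drives many actin genes, had no match in any of the 4 windows, against 1.48% of all promoters. Of the 8 formins with a RefSeq promoter entry, 7 held a GC box before a RefSeq start, whether they rose or fell in KO microglia-like cells, and Diaph3 held none. Fmn1 and Daam1 each have another RefSeq start further downstream, whose windows held no GC box.

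In microglia-like cells all 9 formins passed the test between genotypes, 6 higher and 3 lower in KO. Of the 12729 genes tested 46.1% were called, 22.9% higher and 23.2% lower, so a call by itself was common here. Without KO mouse 1, 8 of the 9 were called (all but Diaph1), where 49.5% of 12882 genes were. Without clusters 5 and 6, 8 of the 9 were again called, all but Diaph1 (0.27, adjusted p = 0.0724), where 5262 of 12560 genes were. The log2 fold changes there were 1.62 for Fmnl2, 1.40 for Daam1, 1.07 for Fmn1 and 1.71 for Diaph3. Markers of other cells moved with genotype in the full microglia-like sums: 11 brain tissue markers summed to 33.6 to 43.9 CPM in control and 98.4 to 163 CPM in KO mice (6 higher and 4 lower in KO, Cldn5 at 0), and 6 dendritic cell markers to 5.25 to 7.93 and 15.7 to 20.8 CPM (3 higher, 2 lower, Ccr7 at 0). Other classes fell in sum. The 6 B cell markers stood at 225 to 241 CPM in control and 72.2 to 138 CPM in KO mice (2 higher, 4 lower). The 8 CAM markers stood at 165 to 181 and 65.4 to 154 CPM (5 higher, 3 lower). The 8 natural killer cell markers were low, at 0.82 to 1.19 and 2.42 to 4.56 CPM (4 higher, 4 lower). The part of these other cells in the formin differences was not tested. The size of the change was less common: 4 of the 9 were called and at least 2-fold higher, where 7.72% of all genes were, and none was called and at least 2-fold lower, where 4.58% were. For 8 of the 9 the genotypes did not overlap, as for 44.3% of all genes. The median log2 fold change of the 9 was 0.48, which is the value of Diaph1, against −0.01 over all genes tested. Diaph1 was at 0.28 without KO mouse 1. The values below are CPM on the library sizes scaled by edgeR's TMM factors. Scaling by totals alone moved the median of all genes by −0.11 and gave 2244 genes higher and 4254 lower, against 2916 and 2948 with TMM.

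**Figure D1:**
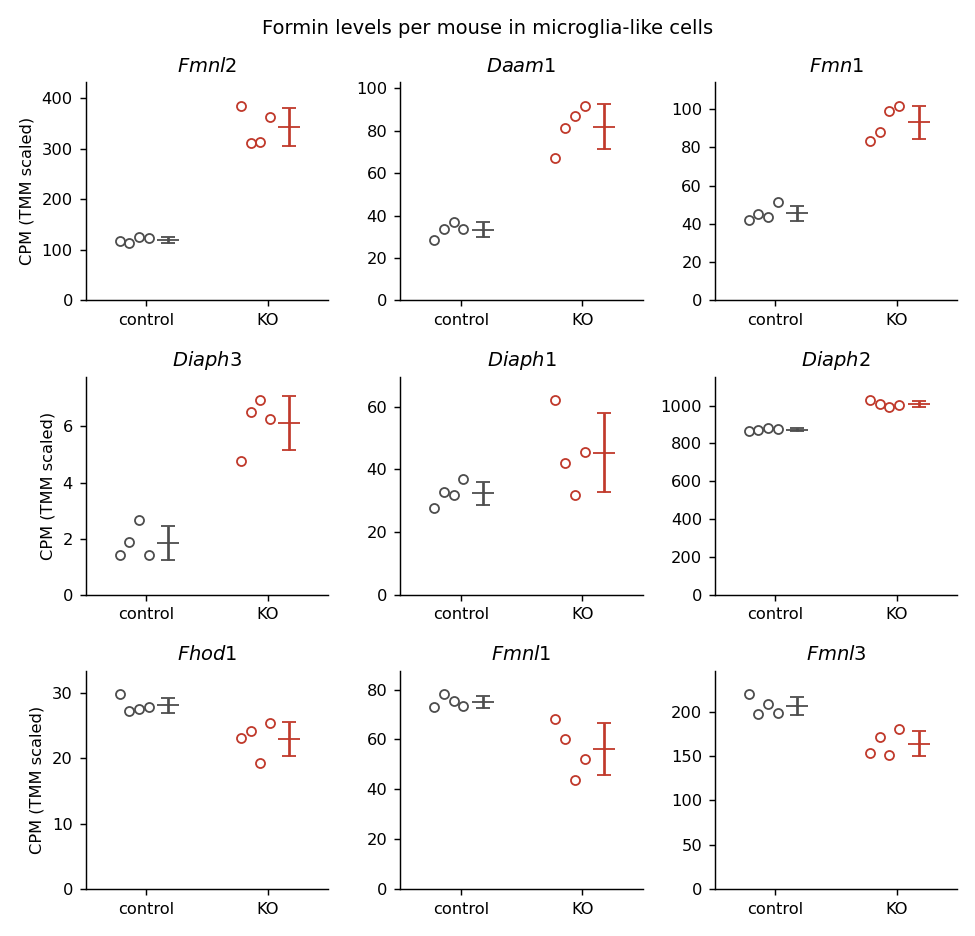
Level of each formin in microglia-like cells in CPM (TMM scaled), with 1 open circle per mouse (4 control in grey, 4 KO in red) and the mean ± SD beside them; each axis starts at 0. Fmnl2, Daam1, Fmn1 and Diaph3 are about 2- to 3-fold higher in KO, Diaph2 is slightly higher, Fhod1, Fmnl1 and Fmnl3 are lower, and Diaph1 overlaps.

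The Fmnl formins act at the cell edge, in lamellipodia and filopodia. Fmnl2 was at 118, 113, 126 and 124 CPM in control mice 1 to 4 and at 385, 311, 313 and 363 CPM in KO mice 1 to 4. Every KO mouse was above 300 and every control below 130. The mean rose from 120 ± 5.77 to 343 ± 36.9 CPM (SD, n = 4 mice each), 2.86-fold, a log2 fold change of 1.51 (SE 0.08, edgeR adjusted p = 2.53e-07). Without KO mouse 1 it was 1.46 (adjusted p = 1.16e-09). The change rested on 4046 control and 14563 KO UMIs.

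Its paralogues Fmnl3 and Fmnl1 went the other way. Fmnl3, known from filopodia and vessel sprouting, was at 220, 198, 209 and 199 CPM in the controls and at 154, 172, 151 and 181 CPM in the KO mice. It fell by 0.33 on the log2 scale (SE 0.07, adjusted p = 0.00289), and by 0.29 without KO mouse 1 (adjusted p = 0.00201). Fmnl1, the family member named for leukocytes, was at 73.0, 78.2, 75.3 and 73.5 CPM in the controls and at 68.2, 60.3, 43.8 and 52.4 CPM in the KO mice. The groups stayed apart, but KO mouse 1 lay close to the controls. Fmnl1 fell by 0.42 (SE 0.11, adjusted p = 0.0106), and by 0.53 without that mouse (adjusted p = 0.00019). Among the 3 Fmnl genes Fmnl3 was thus the highest in every control mouse and Fmnl2 the highest in every KO mouse. UMIs count molecules, and these levels were compared between genes without a length term. Whether the length of a gene affects its count was not tested.

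Daam1 links Wnt and Dishevelled signals to actin. It was at 28.4, 33.8, 37.1 and 33.8 CPM in the controls and at 67.3, 81.1, 86.9 and 91.8 CPM in the KO mice. The lowest KO mouse was well above the highest control. The log2 fold change was 1.28 (SE 0.10, adjusted p = 3.51e-06), 2.43-fold, and 1.36 without KO mouse 1 (adjusted p = 7.97e-09).

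Fmn1 is the founding formin, first known from limb and kidney development, and works at cell junctions and microtubules. It was at 42.0, 45.2, 43.5 and 51.2 CPM in the controls and at 83.5, 88.0, 98.9 and 102 CPM in the KO mice. No KO value came near the controls, and the mean was 2.04-fold higher (log2 fold change 1.03, SE 0.08, adjusted p = 3.36e-06). Without KO mouse 1 the log2 fold change was 1.08 (adjusted p = 5.18e-08). 4 genes lie on the opposite strand within Fmn1; what part their reads have in its count was not tested.

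The Diaphanous formins build long unbranched filaments. Diaph2 was the most abundant formin, at 863, 873, 881 and 874 CPM in the controls and 1029, 1010, 991 and 1002 CPM in the KO mice. The groups did not overlap, although the difference was the smallest of the 9, 1.16-fold (log2 fold change 0.21, SE 0.04, adjusted p = 0.0026). On library totals alone it was 0.10 and not called (adjusted p = 0.0717).

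Diaph1, the founding member of that group, which makes stress fibres and the contractile ring, was at 27.7, 32.7, 31.7 and 37.0 CPM in the controls and at 62.1, 41.8, 31.8 and 45.6 CPM in the KO mice. KO mouse 3 lay among the controls. Its log2 fold change of 0.48 (SE 0.17, adjusted p = 0.0444) became 0.28 (adjusted p = 0.0588) without KO mouse 1. The call was lost when any 1 mouse other than KO mouse 3 was left out (adjusted p up to 0.110). Diaph1 was also higher in monocyte-like cells (139 CPM in control mice, by total) than in microglia-like cells (33.5 CPM). The 8 monocyte markers together stood at 282 CPM in the microglia-like cells of KO mouse 1 against 14.3 to 27.3 CPM in the other KO mice and 10.1 to 15.6 CPM in the controls. Of these markers 5 had a higher and 3 a lower mean in KO, and they include Fn1, a top gene of cluster 5. The part of other cells in the Diaph1 value was not tested.

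Diaph3, needed for the contractile ring and filopodia, was barely expressed. It was at 1.40, 1.89, 2.68 and 1.41 CPM in the controls and at 4.76, 6.52, 6.95 and 6.26 CPM in the KO mice, from 64 and 260 UMIs. The log2 fold change was 1.69 (SE 0.23, adjusted p = 0.00013), and 1.79 without KO mouse 1 (adjusted p = 1.35e-05). Empty droplets held Diaph3 at 4.38 CPM (by total), between the control and the KO values, and in the small proliferating cluster, led by Elane, Prtn3 and Mpo, it reached 251 CPM in 2 control mice. The 6 proliferation markers summed to 21.7 to 28.6 CPM in control and 19.1 to 25.6 CPM in KO microglia-like cells. Of these markers 4 had a higher and 2 a lower mean in KO. The part of dividing cells in the Diaph3 value was not tested.

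Fhod1, which bundles stress fibres, was at 29.8, 27.2, 27.5 and 27.9 CPM in the controls and at 23.1, 24.2, 19.3 and 25.4 CPM in the KO mice. It fell by 0.28 (SE 0.09, adjusted p = 0.0237), and the call was lost without control mouse 1 (adjusted p = 0.0574). Tmem208 overlaps Fhod1 and Gm20511 overlaps Fmnl1 on the opposite strand.

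Of the 5 other formins only Inf2, which acts on actin at the endoplasmic reticulum and mitochondria, could be tested. It was at 0.70, 0.60, 0.43 and 0.91 CPM in the controls and at 8.15, 1.73, 2.53 and 2.86 CPM in the KO mice, from 22 and 161 UMIs. All KO mice were above all controls, KO mouse 1 far above the rest (log2 fold change 2.52, SE 0.57, adjusted p = 0.00399, and 1.85 without it, adjusted p = 0.000428). Fmn2, Daam2, Fhod3 and Grid2ip had at most 10 UMIs in either genotype.

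The same direction appeared in the share of microglia-like cells with at least 1 UMI of a gene, when each cell was thinned to 2000 UMIs. This kept 7507 control and 8910 KO cells and left out 289 and 327. For Fmnl2 the share was 17.6% ± 0.0944 in control and 40.1% ± 2.43 in KO mice (SD, n = 4 each), and 29.2% and 60.7% before thinning. Daam1 went from 5.78% ± 0.722 to 12.9% ± 1.35, Fmn1 from 8.02% ± 1.20 to 13.6% ± 1.35 and Diaph2 from 72.5% ± 1.68 to 75.3% ± 1.14. Fmnl3 went from 32.4 to 34.9% over the control mice to 24.5 to 27.2% over the KO mice, Fmnl1 from 14.1% ± 1.08 to 10.1% ± 1.08 and Fhod1 from 5.18% ± 0.346 to 4.12% ± 0.646. As a background, Fmnl2 UMIs were seen in 3.45% ± 5.26 of all control and 9.85% ± 3.23 of all KO T cell-like cells thinned in the same way, and these cells also held microglia markers. Before thinning the median depths were 3836 and 4284 UMIs in microglia-like and 4981 and 4050 UMIs in T cell-like cells.

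The microglia-like cells of the 2 genotypes mostly fell into different clusters: 1, 2 and 3 held most control cells, and 0, 4, 5, 6, 9, 10, 11 and 14 were mostly KO. The values here are CPM by total, and describe the clusters without a test. In control cells Fmnl2 was at 139 CPM in cluster 1, 62.9 in cluster 2 and 110 in cluster 3. In KO cells it was at 342 ± 13.9 CPM in cluster 0, 184 ± 11.4 in cluster 4, 363 ± 72.7 in cluster 5, 379 ± 30.9 in cluster 6 and 689 ± 137 in cluster 10, which was led by interferon-response genes such as Cxcl10. It was low in KO cluster 11, led by Cst7 and Spp1, at 55.6 ± 24.2 CPM. Diaph2 and Fmnl3 were low there too, at 137 and 47.1 CPM against 1219 and 181 CPM in KO cluster 0. Fmnl1 was not, at 56.6 against 51.3 CPM. The median depth was 2617 UMIs a cell in cluster 11 and 5202 in cluster 0. It was 4971 in cluster 1 and 2744 in cluster 2, but also 2893 in cluster 6, where Fmnl2 was high. The part of depth in these levels was not tested. Fmnl2 thus spanned a range among the KO clusters that took in and passed the control levels.

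Cluster 9, led by the chemokine genes Ccl4 and Ccl3, held cells of all 8 mice, 103 control and 408 KO. There Fmnl2 was at 405 ± 47.8 CPM in control and 367 ± 56.5 CPM in KO mice (n = 4 each), so the control cells of this cluster were as high as the KO cells, within the spread of the mice. Arpc4 ranged from 137 to 299 CPM in the control and from 121 to 159 CPM in the KO mice in the same cells. In cluster 14 Fmnl2 was at 199 ± 63.3 and 208 ± 62.8 CPM (3 mice each). In cluster 0, with 85 control and 3024 KO cells, Fmnl2 was at 255 ± 30.1 and 342 ± 13.9 CPM, but the control-tagged cells there also had Arpc4 at 136 ± 16.1 CPM, near the 127 ± 6.30 CPM of the KO cells and below the 205 to 292 CPM of control clusters 1 to 3. Whether their tags were right was not tested. Daam1 kept a gap in cluster 9, from 20.9 to 61.0 CPM over the control mice against 66.4 to 103 CPM over the KO mice, and Fmn1 was at 132 ± 46.0 and 172 ± 28.3 CPM. Over the 27 pairs of a formin and a cluster with at least 3 mice of each genotype (clusters 0, 9 and 14), KO was higher in 16. These pairs also take in the formins that were lower in KO in the full sums. The same count over all genes was not taken.

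**Figure D2:**
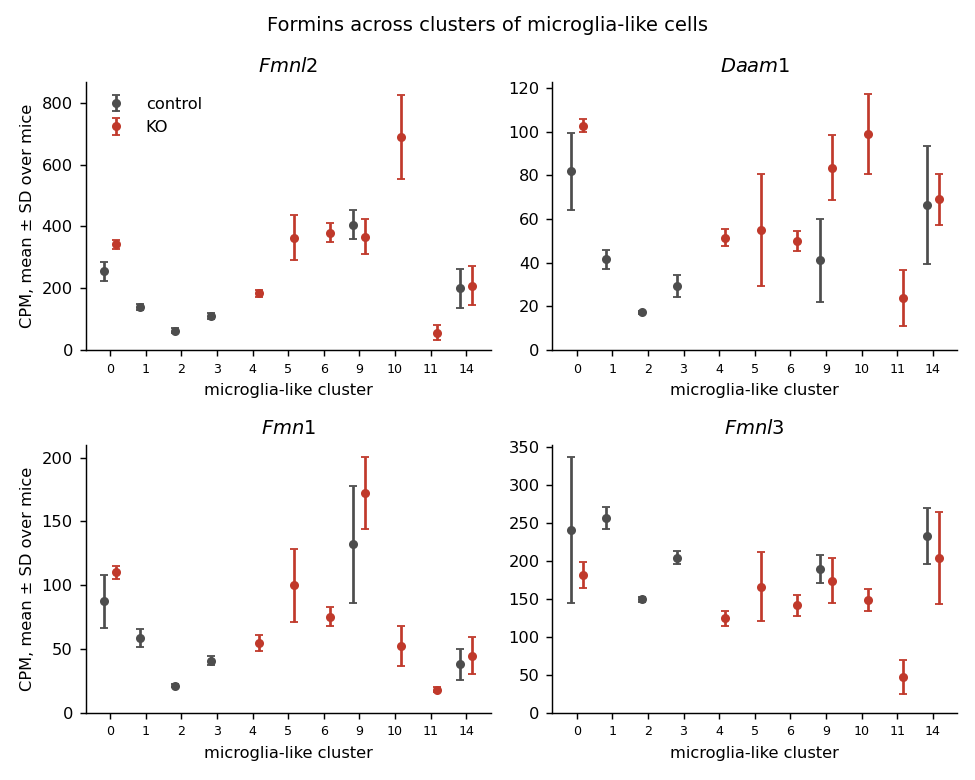
Mean ± SD over mice of the CPM (by total) of Fmnl2, Daam1, Fmn1 and Fmnl3 in each cluster of microglia-like cells (control grey, KO red), for clusters with at least 10 cells in at least 3 mice of the genotype. Fmnl2 is at 405 in control and 367 in KO cells of cluster 9, and is highest in KO cluster 10.

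In the other cell types of control mice Diaph2 again had the highest mean of the formins, at 584 ± 123 CPM in CAM-like, 455 ± 39.3 in T cell-like and 223 ± 71.8 in monocyte-like cells, against 904 ± 14.7 in microglia-like cells (SD, n = 4 mice, CPM by total). In monocyte-like cells of control mouse 4 Diaph1 (182 CPM) was above Diaph2 (168 CPM), and in T cell-like cells with few microglia transcripts, described further on, Diaph1 (158 CPM) was above Diaph2 (133 CPM). 5 of the 9 formins, Diaph2, Daam1, Fhod1, Fmnl2 and Fmnl3, had their highest mean in microglia-like cells. Fmnl3 was at 214 ± 8.71 CPM there, 102 ± 30.9 in T cell-like, 101 ± 33.2 in CAM-like and 35.3 ± 15.1 in monocyte-like cells. Fmnl2 was at 124 ± 6.43 in microglia-like, 87.7 ± 12.8 in CAM-like, 86.5 ± 64.1 in monocyte-like and 33.6 ± 12.9 CPM in T cell-like cells, and the monocyte-like range from 24.4 to 168 CPM took in those of the first 2. Diaph1 had the reverse order, 139 ± 35.6 in monocyte-like, 136 ± 41.6 in T cell-like and 78.9 ± 25.5 in CAM-like against 33.5 ± 4.26 CPM in microglia-like cells, the first 2 not differing beyond their spread. Fmn1 was at 64.6 ± 19.1 CPM in CAM-like and 47.1 ± 4.65 in microglia-like cells, also within the spread, and Fmnl1 at 101 ± 25.0 in monocyte-like and 77.7 ± 2.71 CPM in microglia-like cells. The empty droplets held Diaph2 at 415, Fmnl2 at 119 and Fmnl3 at 116 CPM, and the part of free RNA in the lower values of other cells was not tested.

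**Figure D3:**
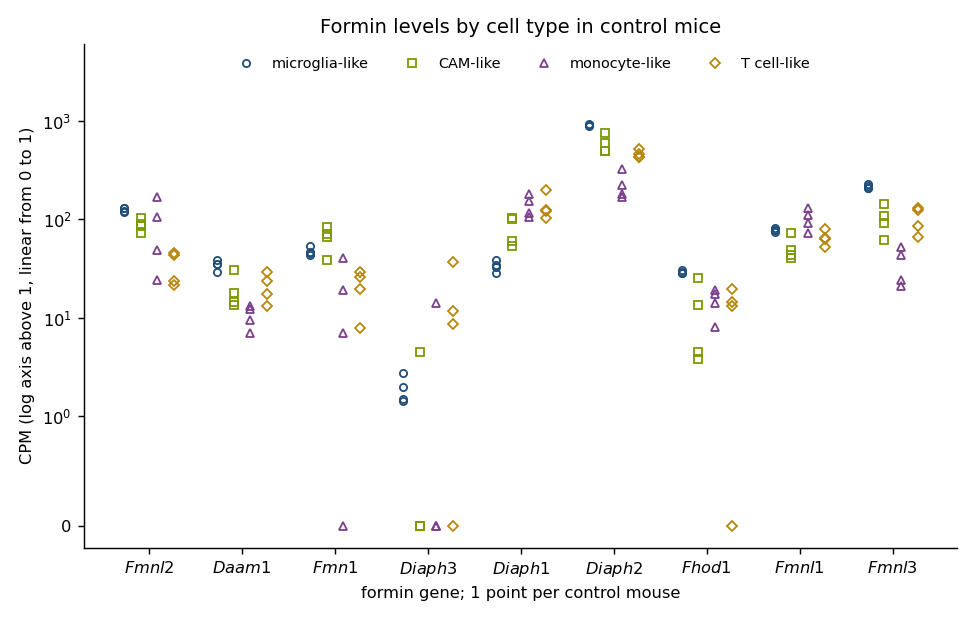
CPM (by total) of each formin in control mice, 1 point per mouse, in microglia-like, CAM-like, monocyte-like and T cell-like cells, on an axis that is linear from 0 to 1 and logarithmic above. Diaph2 has the highest mean in each cell type, although Diaph1 is above it in 1 monocyte-like sum, and Diaph1 is lowest in microglia-like cells. The T cell-like sums include cells with microglia markers.

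Within microglia-like cells of control mice the order of the levels was Diaph2, Fmnl3, Fmnl2, Fmnl1, Fmn1, Daam1, Diaph1, Fhod1 and Diaph3. The ranges over mice did not overlap for the first 5, while Daam1 (29.1 to 38.3 CPM), Diaph1 (28.4 to 38.7 CPM) and Fhod1 (28.2 to 30.5 CPM) did not differ beyond their spread.

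CAM-like cells, which sit at brain borders and vessels, are Cx3cr1-expressing macrophages as well. Arpc4 was not lower in KO there, at 191 ± 23.5 CPM in control and 226 ± 17.8 CPM in KO mice (by total). Of the 9 Arp2/3 subunit genes 0 were called in these cells. Whether the CAM-like cells had lost Arpc4 was not tested. 5 formins could be tested there, and 1 was called, lower in KO, where 1.04% of 3362 genes were called, 0.565% higher and 0.476% lower. Fmnl3 was at 73.4, 123, 168 and 105 CPM in the controls and at 42.6, 35.9, 55.1 and 31.3 CPM in the KO mice (TMM scaled), from 130 and 17 UMIs. It fell by 1.53 (SE 0.37, adjusted p = 0.0434), with an adjusted p of 0.08 without KO mouse 1. The call was lost without any single KO mouse, Fmnl3 was too low to test without control mouse 2, 3 or 4, and DESeq2 called 0 of the formins. P2ry12, a microglia gene, was at 651 ± 47.3 CPM in the control and 310 ± 99.0 CPM in the KO CAM-like cells, and Fmnl3 was higher in microglia-like cells (above). The part of microglia RNA in this difference was not tested.

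Fmnl2 was not called in the CAM-like cells. It was at 105, 119, 101 and 83.9 CPM in the controls and 119, 95.7, 138 and 62.7 CPM in the KO mice, overlapping (log2 fold change 0.05, SE 0.28, adjusted p = 0.967). The difference of the genotype effect between microglia-like and CAM-like cells was tested itself, where 5.27% of 11175 genes were called. Of these 589 genes 505 had a positive difference, and the median over all genes tested was 0.18. The difference was 1.59 for Fmnl2 (log2, SE 0.25, adjusted p = 0.000363), 1.69 for Fmn1 (SE 0.35, adjusted p = 0.00418) and 1.36 for Fmnl3 (SE 0.35, adjusted p = 0.0236). The Fmnl3 call was lost without KO mouse 1 (adjusted p = 0.0574). The difference for Diaph1 was 1.48 (adjusted p = 0.0726), and was called with the mouse, from which both sums come, as a block (adjusted p = 0.00478). With coarser clusters (resolution 0.4) the CAM-like cluster took in Ms4a7-high KO microglia, and its Fmnl2 level in KO became 345 CPM. At that setting the 2 cell types are not separate in KO, so the comparison depends on the finer clusters.

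T cell-like cells are lymphocytes by their markers, and their sums also held microglia transcripts. Fmnl2 was at 49.6, 23.8, 26.8 and 50.2 CPM in the controls and at 252, 163, 158 and 124 CPM in the KO mice, from 24 and 133 UMIs (log2 fold change 2.29, SE 0.32, adjusted p = 5.91e-05; 2.05 without KO mouse 1). 1 of 5 formins was thus called, where 4.04% of 4183 genes were, 1.7% higher and 2.34% lower. The 14 microglia markers summed to 15224 ± 727 CPM in control and 12198 ± 1014 CPM in KO T cell-like cells. Cells with under 0.5% of their UMIs from those markers, a limit set after seeing the values, numbered 71 control and 114 KO, and held 0 and 4 Fmnl2 UMIs, 0 and 10.4 CPM. The other 63 and 61 cells, with median depths of 7695 and 8172 UMIs against 3421 and 3149, held 24 and 129 Fmnl2 UMIs. The Fmnl2 difference in the T cell-like sums lay in deep cells that also carried microglia markers, and since cells were split by microglia transcripts, a low level of a microglia-expressed gene in the first set follows in part from the split. Without them Fmnl2 was too low to test, and Diaph2 stood at 133 CPM in control mice, against 455 CPM in the full sums. Diaph1 (158 and 200 CPM) and Fmnl1 (54.0 and 70.0 CPM in control and KO) were the formins that stayed at similar levels in these cells.

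The difference of the genotype effect between microglia-like and T cell-like cells was called for 1 of the 9 formins, Diaph2 (0.54, SE 0.14, adjusted p = 0.0398), where 2.64% of 11369 genes were. Of these 300 genes 245 had a positive difference. The Diaph2 difference was not called with the T cell-like cells of few microglia markers alone (0.49, adjusted p = 0.608), where Diaph3 was called instead (adjusted p = 0.0264). Diaph3 had 6 UMIs in those control and 0 in those KO T cell-like cells, too few for a size to be given. In monocyte-like cells 0 of 4 formins were called, by edgeR and by DESeq2. Of 3128 genes edgeR called 7.1%, 2.65% higher and 4.44% lower. 1 formin had an unadjusted p under 0.05, as had 601 of the 3128 genes. That 1 was Fmnl1, at 87.8, 136, 157 and 111 CPM in the controls and 149, 237, 208 and 149 CPM in the KO mice (log2 fold change 0.56, SE 0.25, adjusted p = 0.243). Fmnl2 was at 29.4 to 204 CPM in the controls and 47.1 to 248 CPM in the KO mice there (log2 fold change 0.31, SE 0.54).

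**Figure D4:**
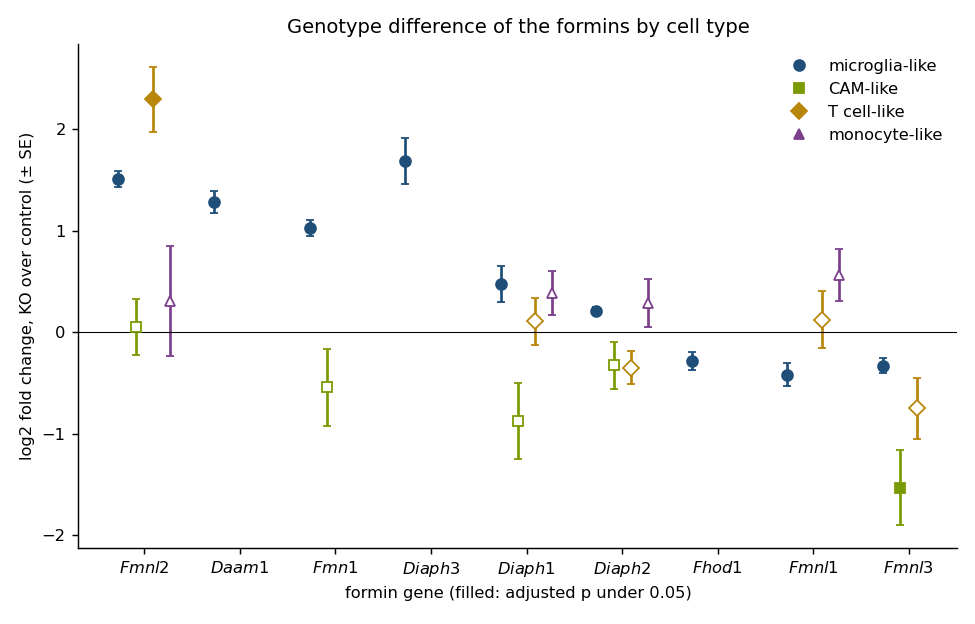
Log2 fold change (KO over control) ± SE of each formin by edgeR, where tested, in microglia-like, CAM-like, T cell-like and monocyte-like cells; filled points have an adjusted p under 0.05. The Fmnl2 point of the T cell-like cells comes from cells with microglia markers.

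The genes that act with the formins were read in microglia-like cells from lists chosen with earlier results known. Of 14 partners of the formins (profilins, the Rock kinases, Dishevelled proteins and formin-binding scaffolds) 13 were tested, 3 were higher, 3 lower and 7 not called, with a median of 0.13, near the 46.1% called over all genes. Iqgap1, a scaffold that binds Diaph1, rose from 9.95 ± 1.45 to 57.9 ± 28.6 CPM (2.52, adjusted p = 0.000113, and 2.15 without KO mouse 1). Srgap2, a membrane-bending Rac GAP that binds Fmnl1 and was the most abundant partner, fell from 2017 ± 28.9 to 1076 ± 196 CPM (−0.91, adjusted p = 8.5e-05). Rock2 fell by 0.49 (adjusted p = 0.000789) and profilin 1 (Pfn1), which carries actin to the FH1 domain, by 0.37 (adjusted p = 0.00375).

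Of 15 genes of the serum response factor and MRTF pathway, which senses free actin, 12 were tested, 2 were higher, 4 lower and 6 not called, with a median of −0.27, again near the 46.1% of all genes. Actb fell from 3491 ± 135 to 2249 ± 137 CPM (−0.63, adjusted p = 1.01e-05), Actg1 by 0.96, Zyx by 0.73 and Cnn2 by 1.32, while Tpm4, a tropomyosin of formin-built filaments, rose by 1.22 (adjusted p = 0.000101). Of the 9 Arp2/3 subunit genes 2 were higher, 2 lower and 5 not called, with a median of 0.09, also near that share. Actr3 rose by 0.65 (adjusted p = 0.00101) and Arpc1b by 0.28 (adjusted p = 0.00494), Arpc5l fell by 0.26 (adjusted p = 0.0111) beside Arpc4, and Arpc2, the most abundant, was at 484 and 492 CPM (0.02, adjusted p = 0.847). Besides the formins, Iqgap1 and Tpm4 were the genes of these lists called with a log2 fold change over 1.

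**Figure D5:**
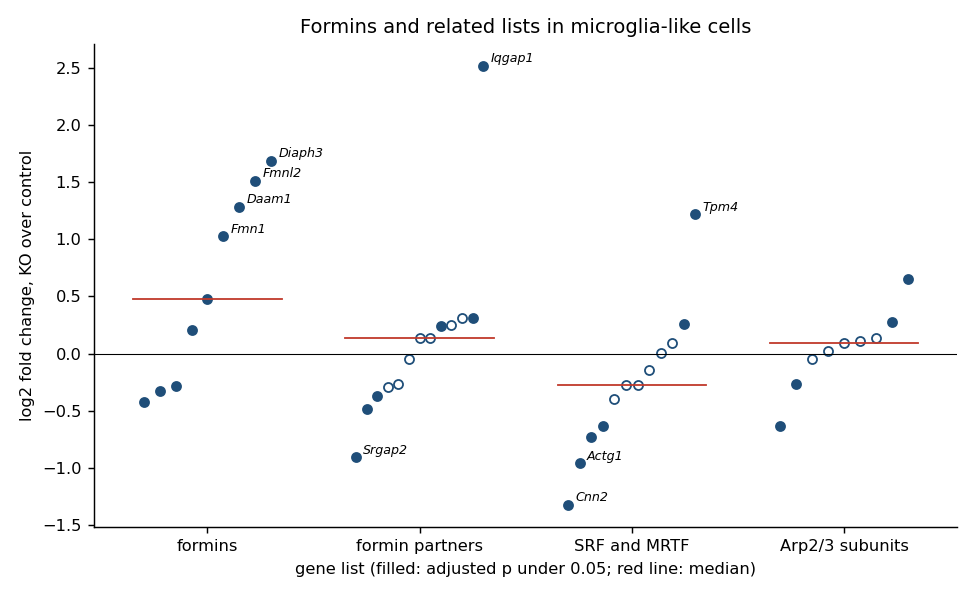
Log2 fold change (KO over control) in microglia-like cells of the tested genes of 4 lists, filled where the adjusted p is under 0.05, with a red line at each list's median and names where the change is over 0.9 in either direction. The formin median is 0.48, the value of Diaph1, and the other medians lie between −0.27 and 0.13.

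For each formin the genes most like it were taken over 14 groups of cell type and genotype, by Pearson's correlation of log2 mean CPM, with no p, since the groups share mice and library. Fmnl2 was closest to Tnfsf13b (0.87), Daam1 to Rmi1 (0.94), Fmn1 to Map4k3 (0.94) and Fmnl3 to Ninl (0.98). Diaph3 was closest to Cdca2 (0.98) and Dscc1 (0.98), genes of dividing cells. Diaph2 was closest to Arhgef2 (0.97), Diaph1 to Fxyd5 (0.88), Fmnl1 to Myo1g (0.87) and Fhod1 to Nipa2 (0.95).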

How the data were processed

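Brain CD45+ cells of 8 mice, tagged per mouse and pooled, were sequenced as 1 10x 3′ library. The authors aligned reads to mm10 and made the deposited counts (unnormalized UMI counts per gene and cell, one matrix a mouse) with Cell Ranger, version 7.1.0 per the file headers and 6.1.2 per the submitters' processing notes. Groups came from the tag named in the labels. The labels speak of 6 multiplexed samples while 8 tags and matrices were present, so the assignment of mice rests on the tag label alone.

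From these counts, barcodes holding 200 genes or more, with mitochondrial UMIs no higher than 20%, were clustered in Seurat 5.3.0 (10000 variable genes without formins or Arpc4, 20 components, resolution 0.8) and named from marker lists. No doublet caller was run, so doublets within a mouse remain. UMIs were summed per mouse and cell type (at least 10 cells, at least 3 mice a genotype) and tested with edgeR 4.0.16 (filterByExpr, TMM, quasi-likelihood, two-sided), with Benjamini-Hochberg adjustment over all genes tested and a threshold of 0.05. SE is the log2 fold change over the square root of F. The test was checked on simulated counts. Alternatives included DESeq2 1.42.0, other scalings and filters, and leaving out each mouse. Intervals and limits for 0 counts (3 counts) cover counting error only.

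The members and gene lists were chosen with earlier results of these data known. Named genes were the formins, Arpc4, from each other list up to 4 called, non-overlapping genes of largest change plus its most abundant member, and the genes most like each formin by correlation of log2(CPM + 10). 8 of the 9 formins matched the RefSeq promoter table. 1 further gene list is not reported here. Genotype cannot be told apart from anything that all KO mice shared in handling.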

Additional observations from a re-analysis of the deposited data

Results flagged for a closer look

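4 differences of the genotype effect between cell types passed the test of the difference itself (edgeR, interaction term). Most genes called in these tests had a positive difference, 505 of 589 against CAM-like and 245 of 300 against T cell-like cells. Against CAM-like cells the log2 difference was 1.59 for Fmnl2 (adjusted p = 0.000363), 1.69 for Fmn1 (adjusted p = 0.00418) and 1.36 for Fmnl3 (adjusted p = 0.0236). Against T cell-like cells it was 0.54 for Diaph2 (adjusted p = 0.0398). The Diaph2 call was lost in 8 alternative settings and kept in 5. The Fmnl3 call against CAM-like cells was lost in 6 and kept in 6. The Fmnl3 value rested on 130 control and 17 KO UMIs in CAM-like cells, and the Diaph2 value on T cell-like sums that also held microglia markers. Among 46 groups of 4 mice 0 held a mouse far from the other 3 by Dixon's test, where chance gives about 1 in 20.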

How the results depend on the processing

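In microglia-like cells between 7 and 9 formins were called when 1 mouse was left out, with 5179 to 6382 genes called. With all cells of a mouse summed, 6 formins and 5137 of 13312 genes were called. Fmnl2, Daam1, Fmn1, Fmnl1 and Fmnl3 were called in each alternative run there. Diaph1 was lost with totals alone (0.37, adjusted p = 0.103) and with all cells of a mouse summed (adjusted p = 0.0776), Diaph2 with totals alone (0.10), Diaph3 with all cells summed (0.81, adjusted p = 0.0591), and Fhod1 with all cells summed (adjusted p = 0.0562) or thinned cells (adjusted p = 0.104). Mouse numbers did not pair control and KO mice (correlations −0.07 to −0.01, with 0 of 8 mice closest to their own number). With the replicate number as a block, Diaph1 was not called (0.43, adjusted p = 0.0576), 0 formins and 18 genes were called in CAM-like cells. With the mouse as a block between cell types, Diaph1 was called against CAM-like cells.

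In CAM-like cells DESeq2 called 0 formins, leaving out a mouse gave 0 to 1 formins and 11 to 63 genes, and testing every gene gave 129 genes, with Fmnl2 at −0.058 there and from −0.12 to 0.21 without a mouse. In T cell-like cells 296 genes were called when every gene was tested and 105 to 176 without a mouse, with Diaph1 from −0.0097 to 0.31. With cells under 0.5% microglia markers alone, chosen after seeing the data, 0 formins and 1 gene were called (70 at an unadjusted p under 0.05). In monocyte-like cells 90 to 240 genes were called without a mouse, and Fmnl2 ranged from −0.035 to 0.77, and was −0.33 in cells of few microglia markers. Between microglia-like and T cell-like cells 0 formins were called with totals alone or with every gene (470 genes), 461 genes with DESeq2, and 0 to 1 formins without a mouse, where Fmn1 ranged from −0.16 to 0.43 and Fhod1 from −0.38 to 0.76. In cells of few microglia markers Fmnl3 was −0.65 there, and Diaph3 was called in place of Diaph2. Against CAM-like cells DESeq2 called 5 formins and 724 of 11175 genes. Without a mouse 348 to 570 genes were called, with Fmnl1 from −0.47 to 0.44 and Diaph3 from −5.49 to 1.04. The cause of these shifts was not tested. Low counts outside microglia-like cells limit all of these comparisons.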
